A study of Mus musculus with 14 samples.

Results

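The genes described here are 31 genes of the unfolded protein response and of protein folding in the endoplasmic reticulum (ER), out of 12260 genes tested. They are given by name, and every probe set annotated to exactly 1 of the 31 symbols was taken. The members fall into an ER arm of 25 genes (5 stress sensors and regulators, 11 chaperones and cochaperones, 5 enzymes of disulfide bond formation and 4 genes of ER-associated degradation) and an Atf4 arm of 6 genes. All 31 members were measured on the array, with 72 probe sets, and all 31 passed the filter on dim signals, with 63 probe sets.

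Left ventricles of male C57BL/6 mice were profiled on 14 Affymetrix Mouse430_2 arrays to ask how loss of Hsp22, the small heat shock protein encoded by Hspb8, changes gene expression at rest and under pressure overload. The overload came from transverse aortic constriction (TAC), in which a ligature on the aortic arch raises the pressure the ventricle must pump against. The groups were Hsp22 knockout ventricles 3 days after TAC (TAC KO, 4 arrays), wild-type ventricles 3 days after TAC (TAC WT, 4 arrays), knockout ventricles in the basal condition (basal KO, 3 arrays) and wild-type ventricles in the basal condition (basal WT, 3 arrays). The mice's age and the part of Hspb8 that was removed are not given. No group is labelled as sham-operated. The labels do not say whether replicate arrays are separate mice, so each p-value speaks only of how these samples scatter, and that scatter may be technical.

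When unfolded proteins build up in the ER, the membrane sensors IRE1 (Ern1), PERK (Eif2ak3) and ATF6 signal to the nucleus. ATF6 and the spliced form of XBP1 switch on chaperones, disulfide enzymes and degradation factors through ER stress elements (ERSE) in their promoters, while PERK slows protein synthesis and favours translation of ATF4, which acts through C/EBP-ATF elements on genes such as Ddit3, Chac1, Trib3 and Asns. In the loaded heart this response is known to be active in cardiomyocytes, and secretory cells such as fibroblasts use the same folding machinery to make collagen. The arrays measure total mRNA and not the splicing of Xbp1, the cleavage of ATF6 or the phosphorylation of PERK.

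Array medians lay between 5.7 and 5.8 on the log2 scale. Hspb8 read 4.27 to 5.13 in the 7 knockout arrays and 11.09 to 12.29 in the 7 wild-type arrays on one probe set, and 5.1 to 5.92 against 10.26 to 11.64 on another. A further probe set, marked by its suffix as open to cross-hybridization, read 8.2 to 8.84 in knockout and 8.79 to 10.01 in wild type. Across genes, arrays of one group correlated with r of 0.970 to 0.991 in TAC KO, 0.918 to 0.986 in TAC WT, 0.986 to 0.988 in basal KO and 0.983 to 0.987 in basal WT. TAC WT 1 and TAC WT 3 stood apart from the other TAC arrays. Counts of members, and some single genes that rest on these arrays, are also given without them. By the array names in the labels, no TAC array shared its array day with a basal array, so in each comparison of TAC with basal the array day and the surgery cannot be told apart. The day of basal KO 3 differed from that of the remaining 5 basal arrays. The 15 cardiomyocyte markers averaged 13.81 to 14.09 in TAC KO, 13.67 to 14.19 in TAC WT, 14.15 to 14.18 in basal KO and 14.16 to 14.19 in basal WT (log2, mean of the markers per array).

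Promoters were read for 28 of the 31 members in the RefSeq table of GRCm38.p6, from 250 bases before to 50 bases after the annotated start site. They show which members carry the elements through which the response is known to act. The ERSE was searched as CCAAT, then 9 bases, then CCACG, and it was present in 8 of the 22 ER-arm promoters, in 0 of the 6 Atf4-arm promoters and in 39 of all 32851 promoters (0.119%). Its holders were Calr, Canx, Creld2, Dnajc3, Hsp90b1, Hspa5, Pdia6 and Syvn1. The ERSE-II, searched as ATTGG, then 1 base, then CCACG, was present in Dnajb11 and Herpud1 and in 12 of all promoters (0.0365%). The C/EBP-ATF element, searched as TGATGNAA, was present in Asns, Atf3, Chac1 and Trib3 of the Atf4 arm, in Herpud1 of the ER arm, and in 1304 of all promoters (3.97%). The UPR element, searched as TGACGTGG, was in 0 of the 28 and in 222 of all promoters (0.676%). Both strands were searched, and only exact matches were counted, so a promoter may hold further copies that differ from a pattern by a letter. The ERSE and the ERSE-II end in the same CCACG, and its complement CGTGG lies within the UPR element. A match is a description of these letters and not evidence of binding.

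The 250 bases before the start site of 5 members are printed 5′ to 3′ on the strand of the gene, because they hold matches of these patterns and include genes that moved in opposite directions. Capitals mark the matched letters of the ERSE, the ERSE-II or the C/EBP-ATF element. Hspa5 lies at chr2:34771840-34772089 on the plus strand (GRCm38.p6), Hsp90b1 at chr10:86705445-86705694 on the minus strand, Herpud1 at chr8:94386179-94386428 on the plus strand, Asns at chr6:7693210-7693459 on the minus strand and Chac1 at chr2:119350992-119351241 on the plus strand. In exact matches, Hspa5 has 1 ERSE, Hsp90b1 has 2 of them on opposite strands, Herpud1 has an ERSE-II and a C/EBP-ATF element, and Asns and Chac1 have 1 C/EBP-ATF element each.
Hspa5: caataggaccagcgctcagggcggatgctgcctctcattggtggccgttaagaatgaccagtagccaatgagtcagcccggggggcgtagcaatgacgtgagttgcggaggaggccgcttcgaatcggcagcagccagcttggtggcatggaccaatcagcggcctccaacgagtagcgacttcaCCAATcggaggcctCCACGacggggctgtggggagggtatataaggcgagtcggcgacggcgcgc
Hsp90b1: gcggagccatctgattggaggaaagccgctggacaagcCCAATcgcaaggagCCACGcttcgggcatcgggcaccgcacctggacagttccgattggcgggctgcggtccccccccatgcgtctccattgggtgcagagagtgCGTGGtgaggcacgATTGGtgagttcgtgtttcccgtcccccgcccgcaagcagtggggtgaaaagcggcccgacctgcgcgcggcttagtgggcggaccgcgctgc
Herpud1: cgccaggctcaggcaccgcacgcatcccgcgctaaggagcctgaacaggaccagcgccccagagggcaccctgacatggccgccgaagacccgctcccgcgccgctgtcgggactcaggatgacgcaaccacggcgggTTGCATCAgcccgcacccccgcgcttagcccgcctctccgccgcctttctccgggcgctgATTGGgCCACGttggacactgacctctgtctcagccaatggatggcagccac
Asns: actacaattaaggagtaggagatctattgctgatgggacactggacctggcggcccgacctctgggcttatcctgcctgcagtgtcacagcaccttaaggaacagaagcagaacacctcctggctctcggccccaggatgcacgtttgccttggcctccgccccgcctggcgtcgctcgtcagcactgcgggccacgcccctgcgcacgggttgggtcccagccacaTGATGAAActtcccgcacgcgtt
Chac1: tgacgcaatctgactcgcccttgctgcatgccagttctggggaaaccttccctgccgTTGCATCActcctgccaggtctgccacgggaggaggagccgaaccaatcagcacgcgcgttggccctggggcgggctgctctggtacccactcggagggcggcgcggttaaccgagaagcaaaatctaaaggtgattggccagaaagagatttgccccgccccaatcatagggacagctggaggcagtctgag

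After TAC the members moved in both directions. In the knockout, 6 of 31 were higher and 6 were lower at an adjusted p under 0.05 in limma, against 22.7% of all genes higher and 21.8% lower. In the wild type, 10 of 31 were higher and 4 were lower, against 26.9% of all genes higher and 23.8% lower. The median difference over the members was log2 0.14 in the knockout and 0.35 in the wild type, beside -0.02 and 0.02 over all genes tested. Asns, Edem1, Eif2ak3, Hsp90b1, P4hb and Pdia3 were higher in both genotypes, and Ern1, Herpud1 and Ppp1r15a were lower in both. The members' shares were 19.4% higher and 19.4% lower in the knockout and 32.3% higher and 12.9% lower in the wild type. The share higher was near the background in both genotypes. In the wild type it was below the background when the arrays of that comparison alone were fitted (4 of 31, beside 21.2% of all genes, with Canx, Edem1, Eif2ak3, Hspa5, P4hb and Pdia3 no longer called), and close to it without basal WT 2 (7 of 31, beside 21.1%).

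**Figure D1:**
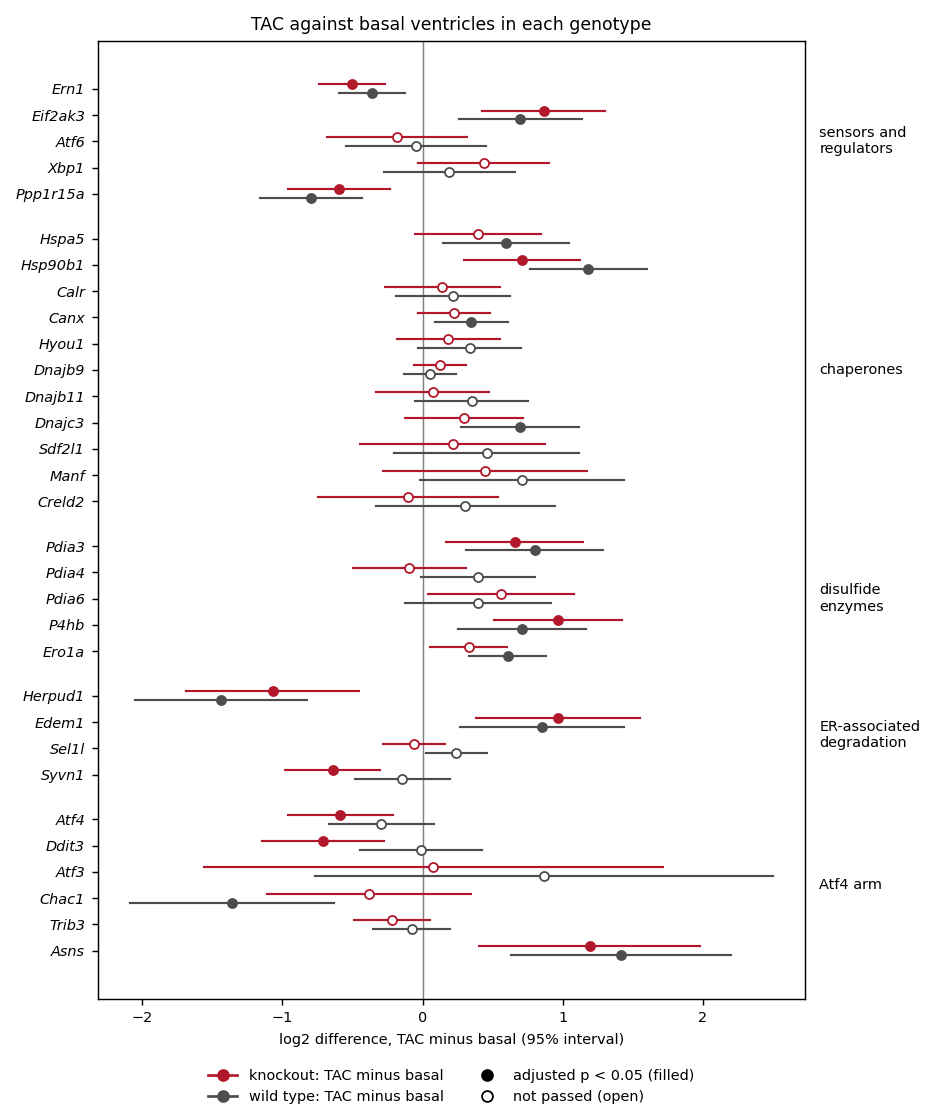
Difference between TAC and basal ventricles for each of the 31 members (log2, with its 95% interval), knockout in red above wild type in grey, grouped by role. Filled points passed an adjusted p of 0.05; Asns lies farthest to the right among them and Herpud1 and Chac1 farthest to the left.

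The sensors and regulators split. Eif2ak3, which encodes the eIF2α kinase PERK, read 7.5, 7.6, 7.84 and 7.91 in TAC KO against 6.94, 6.68 and 6.93 in basal KO, and 7.09, 7.39, 8.18 and 7.53 in TAC WT against 7.02, 6.82 and 6.71 in basal WT. All TAC arrays lay above all basal arrays of their genotype, with TAC WT 1 only just above basal WT 1. Eif2ak3 was 1.82-fold higher in the knockout (log2 0.86, SE 0.20, adjusted p = 0.00517) and 1.62-fold higher in the wild type (log2 0.70, SE 0.20, adjusted p = 0.0128), where the call was lost without basal WT 3. Ern1, which encodes the kinase and RNase IRE1, read 7.72 to 7.96 in TAC KO against 8.2 to 8.54 in basal KO, and 8.01 to 8.2 in TAC WT against 8.34 to 8.56 in basal WT. The groups did not overlap in either genotype, and Ern1 fell by 0.50 (adjusted p = 0.00326) and by 0.36 (adjusted p = 0.0155) on the log2 scale, the smaller fall losing its call without basal WT 1 or basal WT 2. Both kept probe sets of Ern1 were lower in both genotypes, and each passed in the wild type.

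Ppp1r15a encodes GADD34, the subunit that directs a phosphatase to eIF2α and so opposes PERK. It read 8.01, 8.18, 8.16 and 8.47 in TAC KO against 8.77, 8.58 and 9.05 in basal KO, and 7.93, 8.34, 8.08 and 8.41 in TAC WT against 8.87, 9.32 and 8.77 in basal WT. No TAC array reached the lowest basal array of its genotype. It was 1.51-fold lower in the knockout (adjusted p = 0.0136, lost without basal KO 3) and 1.74-fold lower in the wild type (adjusted p = 0.00232). Xbp1, the transcription factor whose mRNA is spliced by IRE1, read 11.27 to 11.77 in TAC KO against 10.92 to 11.22 in basal KO, which do not overlap, but did not pass (log2 0.43, adjusted p = 0.114). Its level was 10.65 to 11.72 in TAC WT against 10.79 to 11.24 in basal WT (log2 0.19, adjusted p = 0.471). Without TAC WT 1, which enters the knockout comparison only through the shared spread, Xbp1 passed there (adjusted p = 0.0391). It also passed there with the mean of its probe sets (log2 0.49, adjusted p = 0.0458). So it did with the arrays of that comparison alone (0.024), array weights (0.03) and without TAC WT 1 and 3 (0.0298). Another of its probe sets passed in the knockout (log2 0.60, adjusted p = 0.0232 over probe sets), and the remaining ones did not. Atf6, which encodes the sensor cleaved in the Golgi, differed by log2 -0.18 in the knockout (adjusted p = 0.535) and by -0.05 in the wild type (adjusted p = 0.873), with TAC WT 1 and 2 at 10.34 and 10.3 and TAC WT 3 and 4 at 9.25 and 9.56.

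Of the 11 chaperones and cochaperones, 1 rose in the knockout and 4 in the wild type, and none of them fell in either. Beside these counts, 22.7% of all genes rose and 21.8% fell in the knockout, and 26.9% and 23.8% in the wild type. Hsp90b1, the ER form of HSP90 known as GRP94, read 11.88, 11.76, 11.54 and 11.63 in TAC KO against 10.84, 11.05 and 11.09 in basal KO. Wild-type arrays read 11.49, 11.76, 12.54 and 11.82 in TAC WT against 10.58, 10.76 and 10.82 in basal WT. No TAC array overlapped a basal one, and TAC WT 3 was the highest. The gene, whose promoter holds 2 exact matches of the ERSE, was 1.63-fold higher in the knockout (log2 0.71, SE 0.19, adjusted p = 0.0106) and 2.27-fold higher in the wild type (log2 1.18, SE 0.19, adjusted p = 0.000511). Its other probe set did not pass, at log2 0.17 in the knockout (adjusted p = 0.467 over 21216 probe sets) and 0.40 in the wild type (adjusted p = 0.0789), and with the mean of both the knockout call was lost (log2 0.44, adjusted p = 0.0607).

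Hspa5 encodes BiP, the main ER chaperone and the sensors' binding partner. It read 12.58, 12.31, 12.28 and 12.58 in TAC KO against 12.07, 11.84 and 12.22 in basal KO, and 11.81, 12.41, 12.99 and 12.43 in TAC WT against 11.69, 11.79 and 11.96 in basal WT. The knockout groups did not overlap, by a narrow margin, while TAC WT 1 lay within the basal WT range. Hspa5 was 1.51-fold higher in the wild type (log2 0.60, SE 0.21, adjusted p = 0.0298) and did not pass in the knockout (log2 0.39, SE 0.21, adjusted p = 0.137). With the arrays of 1 comparison alone these calls changed places: Hspa5 passed in the knockout (adjusted p = 0.0319) and not in the wild type (adjusted p = 0.0898). Without TAC WT 1 and 3, chosen after seeing the data, Hspa5 also passed in the knockout (adjusted p = 0.0188). Leaving out basal WT 1, basal WT 2, TAC WT 3 or TAC WT 4 ended the wild-type call, and the 3 probe sets disagreed in sign there (log2 0.60, 0.52 and -0.22). In the knockout the same probe sets were at log2 0.39, 0.14 and 0.26. The last of them, which carries a suffix of possible cross-hybridization, passed in the knockout (adjusted p = 0.0418 over probe sets). The difference between the genotypes' responses did not pass (log2 -0.20, 95% interval -0.84 to 0.43).

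Canx, the membrane-bound lectin chaperone calnexin, read 11.47 to 11.67 in TAC KO against 11.26 to 11.43 in basal KO, and 11.49 to 11.94 in TAC WT against 11.14 to 11.51 in basal WT. It was 1.27-fold higher in the wild type (log2 0.35, adjusted p = 0.0282), a call lost without basal WT 1, basal WT 3 or TAC WT 3, and log2 0.22 in the knockout (adjusted p = 0.142). This probe set carries a suffix of possible cross-hybridization. Another Canx probe set passed in the knockout (log2 0.51, adjusted p = 0.0042 over probe sets) and in the wild type (log2 0.42, 0.00988). A further one passed in the wild type only (log2 0.39, 0.0462, and 0.09 in the knockout). Dnajc3, the cochaperone P58IPK, read 8.9, 9.45, 9.51 and 9.07 in TAC WT against 8.81, 8.14 and 8.67 in basal WT. All TAC WT arrays were above all basal WT arrays, and Dnajc3 was 1.62-fold higher (log2 0.69, adjusted p = 0.0107, lost without basal WT 2). In the knockout, where 8.88 to 9.38 in TAC KO overlapped 8.6 to 9.05 in basal KO, it differed by log2 0.29 (adjusted p = 0.231).

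The other 7 chaperones did not pass in either genotype. Calr, the soluble lectin chaperone calreticulin, differed by log2 0.14 in the knockout and 0.22 in the wild type, and Hyou1, the nucleotide exchange factor of BiP, by 0.18 and 0.34. A further Hyou1 probe set was lower in the knockout (log2 -0.95, adjusted p = 0.000815 over probe sets) and at -0.36 in the wild type (adjusted p = 0.0808), so that its direction depends on the probe set. Dnajb9, a BiP cochaperone known as ERdj4, read 10.55 to 10.71 in TAC KO against 10.42 to 10.64 in basal KO, and 10.72 to 10.84 in TAC WT against 10.66 to 10.74 in basal WT, and the differences were log2 0.12 and 0.06. Dnajb11, the cochaperone ERdj3, was at log2 0.07 and 0.35, and Sdf2l1, a BiP-associated factor, at 0.21 and 0.46. Manf, a secreted and ER-retained survival factor, was at log2 0.45 and 0.71, and Creld2, an ER protein induced by unfolded proteins, at -0.10 and 0.30. Manf read 9.71, 10.61, 11.64 and 10.92 in TAC WT, against 9.89, 9.76 and 10.39 in basal WT, and had the largest SD of the ER arm in TAC WT (0.80). In Manf, Sdf2l1 and Creld2, TAC WT 1 was the lowest and TAC WT 3 the highest of the 4.

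Among the 5 disulfide enzymes, 2 rose in the knockout and 3 in the wild type, beside 22.7% and 26.9% of all genes. The median was log2 0.56 and 0.61. P4hb encodes protein disulfide isomerase, which is also the beta subunit of the enzyme that hydroxylates collagen prolines. It read 11.92, 12.27, 12.14 and 12.33 in TAC KO against 11.24, 11.17 and 11.18 in basal KO, and 11.24, 11.57, 12.38 and 12.12 in TAC WT against 11.03, 11.21 and 11.12 in basal WT. The knockout groups stood well apart, whereas TAC WT 1 was close to basal WT. P4hb was 1.96-fold higher in the knockout (log2 0.97, SE 0.21, adjusted p = 0.00341) and 1.63-fold higher in the wild type (log2 0.71, SE 0.21, adjusted p = 0.0145).

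Pdia3, the isomerase ERp57 that works with calnexin and calreticulin, read 11.73 to 11.89 in TAC KO against 11.03 to 11.25 in basal KO, and 11.14 to 12.45 in TAC WT against 10.62 to 11.10 in basal WT. It was 1.58-fold higher in the knockout (adjusted p = 0.0318) and 1.74-fold higher in the wild type (adjusted p = 0.011). Its other kept probe set pointed the other way and did not pass, at log2 -0.22 in the knockout and -0.19 in the wild type. With the mean of the probe sets Pdia3 passed in neither genotype, at log2 0.22 in the knockout (adjusted p = 0.300) and 0.30 in the wild type (adjusted p = 0.144), so its calls depend on the probe set. Leaving out any of the 3 basal KO arrays, or TAC KO 1, 3 or 4, ended the knockout call, and leaving out basal WT 2 ended that in the wild type. Ero1a, the oxidase that recharges protein disulfide isomerase, read 8.84, 8.95, 9.12 and 9.16 in TAC WT against 8.37, 8.35 and 8.51 in basal WT, which do not overlap, and was 1.52-fold higher (log2 0.61, adjusted p = 0.00217). In the knockout it read 8.87, 8.51, 9.08 and 8.9 in TAC KO against 8.56, 8.45 and 8.52 in basal KO, where TAC KO 2 overlapped basal KO, and it lay just past the threshold (log2 0.33, adjusted p = 0.0502). Its other 2 probe sets passed in both genotypes, at log2 0.88 and 0.58 in the knockout and at 1.54 and 1.12 in the wild type. Pdia6 read 11.06 to 11.19 in TAC KO against 10.33 to 10.8 in basal KO, which do not overlap, but did not pass, at log2 0.56 in the knockout (adjusted p = 0.074) and 0.39 in the wild type. In the knockout Pdia6 passed when the arrays of that comparison alone were fitted (adjusted p = 0.00506), with array weights (0.00546), without TAC WT 1 (0.0207), without TAC WT 3 (0.014) and without both (0.00239). Pdia4 did not pass, at log2 -0.09 and 0.39. Both encode further protein disulfide isomerases.

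The genes of ER-associated degradation, which extracts misfolded proteins for the proteasome, moved apart. Herpud1, which organizes the ubiquitin ligase complex, read 11.08, 10.73, 10.74 and 9.98 in TAC KO against 11.48, 11.76 and 11.87 in basal KO, and 11.47, 10.88, 10.42 and 10.35 in TAC WT against 12.53, 12.27 and 11.85 in basal WT. All TAC arrays lay below all basal arrays of their genotype. Herpud1 was 2.10-fold lower in the knockout (log2 -1.07, SE 0.29, adjusted p = 0.00975) and 2.71-fold lower in the wild type (log2 -1.44, SE 0.29, adjusted p = 0.0016), and its other probe set passed in both at log2 -0.99 and -1.48. Edem1, which delivers misfolded glycoproteins for degradation, read 8.82, 8.82, 8.88 and 9.01 in TAC KO against 7.89, 7.63 and 8.23 in basal KO, and 7.87, 8.67, 9.53 and 8.75 in TAC WT against 7.91, 7.9 and 7.75 in basal WT. Only TAC WT 1 lay within its basal range. Edem1 was 1.95-fold higher in the knockout (log2 0.97, adjusted p = 0.0131, lost without basal KO 2) and 1.80-fold higher in the wild type (log2 0.85, adjusted p = 0.0201, lost without basal WT 3), and its other probe set was at log2 1.84 and 1.70.

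Syvn1, the ubiquitin ligase HRD1, read 7.54 to 7.97 in TAC KO against 8.18 to 8.62 in basal KO, and 7.65 to 8.34 in TAC WT against 8.07 to 8.11 in basal WT. It was 1.56-fold lower in the knockout (log2 -0.64, adjusted p = 0.00628) and did not pass in the wild type (log2 -0.14, adjusted p = 0.453). Sel1l, the adaptor of HRD1, was at log2 -0.06 in the knockout (adjusted p = 0.653) and 0.24 in the wild type (adjusted p = 0.0636), where 9.84 to 10.16 in TAC WT lay above 9.64 to 9.81 in basal WT. A further Sel1l probe set was called lower in the wild type (log2 -0.49, adjusted p = 0.0177 over probe sets), so its direction depends on the probe set.

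**Figure D2:**
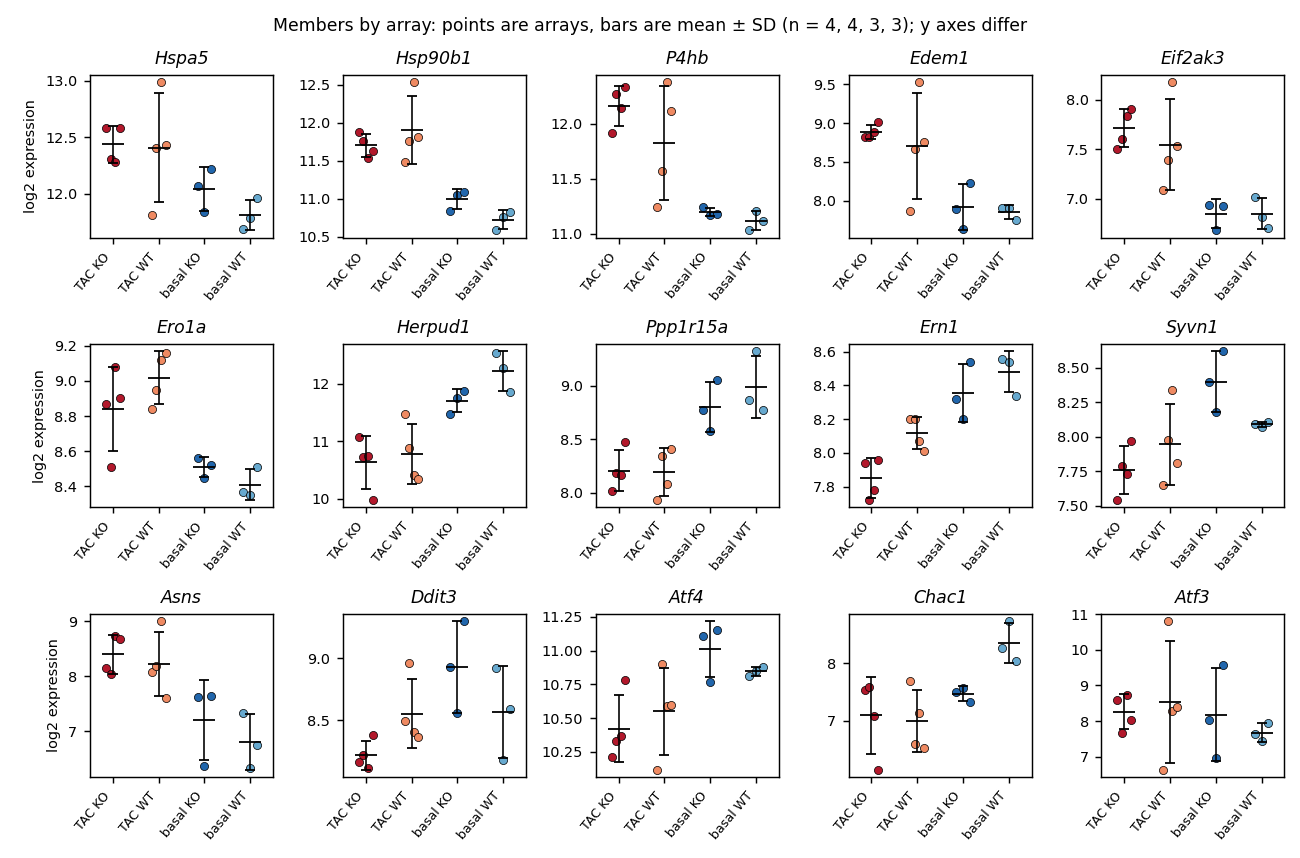
Log2 expression of 15 members on every array, in TAC KO, TAC WT, basal KO and basal WT, with points for arrays and bars for the mean ± SD (n = 4, 4, 3 and 3). The y axes differ between panels. In Hsp90b1, Eif2ak3 and Asns all TAC arrays lie above the basal arrays of their genotype, in Herpud1 and Ppp1r15a all lie below them, and the TAC WT points are the most spread in Hspa5, P4hb and Edem1.

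In the Atf4 arm 1 of 6 genes rose and 2 fell in the knockout, beside 22.7% and 21.8% of all genes. There 1 rose and 1 fell in the wild type, beside 26.9% and 23.8%. Asns, asparagine synthetase, read 8.15, 8.03, 8.73 and 8.67 in TAC KO against 7.62, 6.36 and 7.63 in basal KO, and 8.08, 8.19, 9.0 and 7.61 in TAC WT against 7.33, 6.33 and 6.75 in basal WT. All TAC arrays lay above all basal arrays of their genotype, and the replicates numbered 2 were the lowest of both basal groups. Asns was 2.28-fold higher in the knockout (log2 1.19, SE 0.37, adjusted p = 0.0188) and 2.67-fold higher in the wild type (log2 1.42, SE 0.37, adjusted p = 0.00671). Without basal KO 2 the knockout value was log2 0.77 (adjusted p = 0.102), and the call was also lost without TAC KO 4.

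Chac1, an enzyme that breaks down glutathione, read 7.54, 7.59, 7.09 and 6.15 in TAC KO against 7.51, 7.58 and 7.33 in basal KO, and 7.70, 6.6, 7.14 and 6.53 in TAC WT against 8.27, 8.74 and 8.05 in basal WT. The knockout groups overlapped and the wild-type groups did not. Chac1 was 2.57-fold lower in the wild type (log2 -1.36, SE 0.34, adjusted p = 0.00546) and at log2 -0.38 in the knockout (adjusted p = 0.369). The difference between these responses was log2 0.98 (95% interval -0.05 to 2.01, adjusted p = 0.643). Asns and Chac1 both match the C/EBP-ATF pattern in the promoters printed above, with different letters at its open position and on opposite strands, and they moved in opposite directions in the wild type.

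Ddit3, which encodes the transcription factor CHOP, read 8.16, 8.22, 8.11 and 8.38 in TAC KO against 8.93, 8.56 and 9.3 in basal KO, and 8.49, 8.96, 8.40 and 8.36 in TAC WT against 8.92, 8.18 and 8.59 in basal WT. The TAC KO arrays were all below the basal KO arrays, and the wild-type groups overlapped. It was 1.64-fold lower in the knockout (log2 -0.71, SE 0.20, adjusted p = 0.0132, lost without basal KO 3) and at log2 -0.01 in the wild type (adjusted p = 0.968). The difference of the responses was log2 -0.70 (unadjusted p = 0.0282, adjusted p = 0.598). Atf4 itself was 1.5-fold lower in the knockout (log2 -0.59, adjusted p = 0.0165), although TAC KO 4 at 10.78 overlapped basal KO 2 at 10.77, and the call was lost without basal KO 1 or basal KO 3. In the wild type it was at log2 -0.29 (adjusted p = 0.17), and its other 2 probe sets were called there in opposite directions (log2 0.98 and -0.67), so that its direction depends on the probe set. With the mean of the probe sets Atf4 was at log2 -0.06 in the knockout (adjusted p = 0.776).

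Atf3, a stress-induced transcription factor, was the most variable member in TAC WT and in basal KO. It read 8.6, 7.67, 8.73 and 8.04 in TAC KO, 6.64, 10.81, 8.29 and 8.41 in TAC WT, 8.02, 6.96 and 9.57 in basal KO and 7.63, 7.43 and 7.96 in basal WT. TAC WT 2 and basal KO 3 stood high in their groups, and TAC WT 1 stood low. Atf3 did not pass in the knockout (log2 0.08, SE 0.76, adjusted p = 0.941) or in the wild type (log2 0.86, SE 0.76, adjusted p = 0.352). Trib3, a pseudokinase of this arm, read 5.88 to 6.29 in TAC KO against 6.32 to 6.38 in basal KO, which do not overlap, and 5.94 to 6.37 in TAC WT against 6.04 to 6.31 in basal WT. It did not pass (log2 -0.22, adjusted p = 0.166, and -0.08, adjusted p = 0.613).

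By overlap in place of the test, 10 members lay wholly above and 6 wholly below the basal arrays in the knockout, beside 27.7% and 26.7% of all genes. For the wild type, 8 lay wholly above and 4 wholly below, beside 25.5% and 24.3%. Of the 10 ER-arm members with an ERSE or ERSE-II, 1 was higher and 2 were lower in the knockout, against 4 higher and 2 lower of the 12 with neither. In the wild type 4 were higher and 1 was lower of the 10, against 5 higher and 2 lower of the 12. Called shares over all genes were 22.7% higher and 21.8% lower in the knockout and 26.9% and 23.8% in the wild type. Hspa5, Hsp90b1, Canx and Dnajc3 were the holders that rose in the wild type, and Herpud1, with its ERSE-II, fell.

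The 4 TAC WT arrays differed more among themselves in the ER arm than any other group did. The median SD over the 25 members was 0.165 in TAC KO, 0.449 in TAC WT, 0.165 in basal KO and 0.157 in basal WT. TAC WT 3 was the highest of the 4 for 19 of the 25 members, and TAC WT 1 was the lowest for 22. Over all genes, TAC WT 3 was the highest for 35.2% and TAC WT 1 the lowest for 30.8%. Without TAC WT 1, 16 of the 25 ER-arm members were higher in the wild type in place of 9, beside 29.4% of all genes, and 3 were lower as before. Dnajb11, Hyou1, Manf, Pdia4, Pdia6, Sdf2l1 and Sel1l gained a call in that fit. Without TAC WT 3, 7 of the 25 were higher and 3 lower, beside 24.0% and 19.6% of all genes. Without both, which was chosen after seeing the data, 11 were higher and 3 lower, beside 24.2% and 19.4%.

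**Figure D3:**
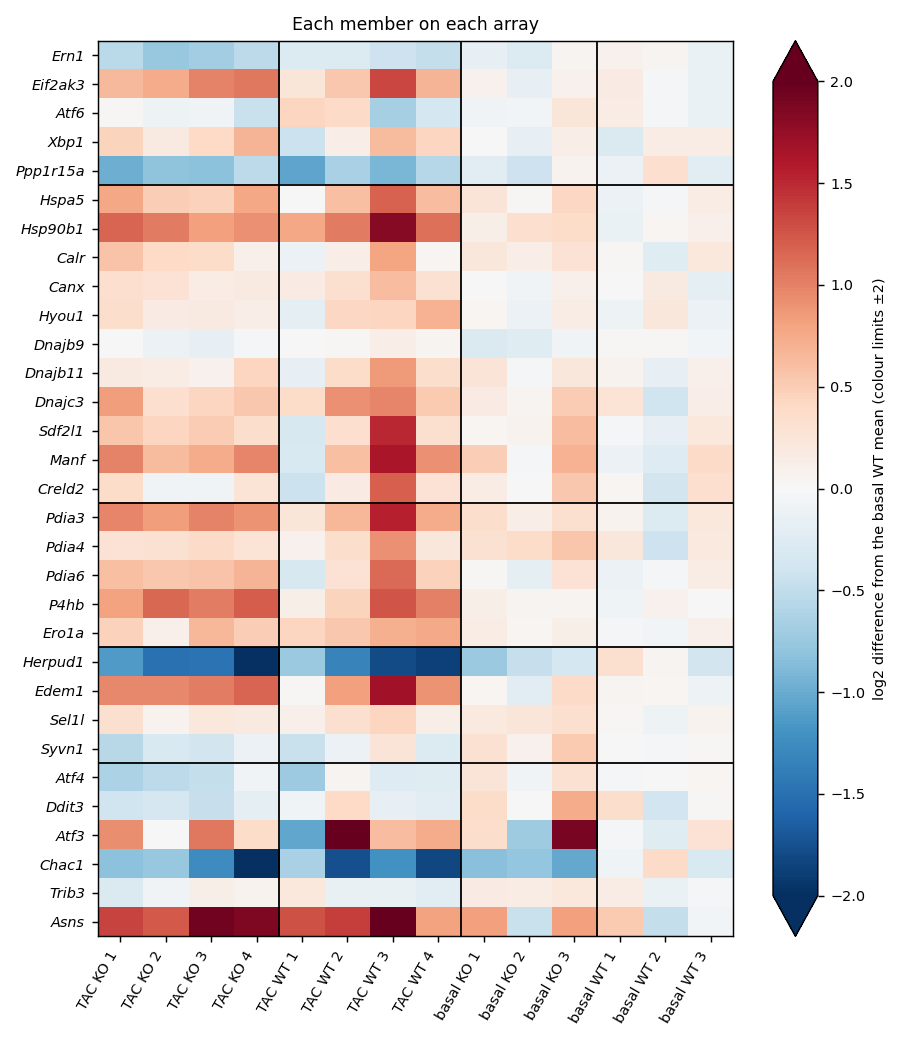
Each of the 31 members (rows, by role) on each of the 14 arrays (columns), as the log2 difference from the mean of the basal WT arrays, with colours limited to ±2. Most ER-arm rows are redder in TAC WT 3 and paler in TAC WT 1 than in the 4 TAC KO arrays, and Herpud1 and Chac1 are blue in most TAC arrays.

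Markers of other cells followed this order in some lists and not in others. The 18 macrophage markers, with Cd68 and Adgre1 among them, averaged 9.53, 9.64, 9.63 and 9.41 in TAC KO and 8.52, 8.86, 10.29 and 8.92 in TAC WT, against 8.22 to 8.33 in basal KO and 7.88 to 8.13 in basal WT (log2, mean of the list per array). The 8 proliferation markers averaged 7.22 to 7.94 in TAC KO and 5.46, 6.51, 9.01 and 7.79 in TAC WT, against 5.10 to 5.27 in basal KO and 5.01 to 5.15 in basal WT. TAC WT 1 was the lowest and TAC WT 3 the highest of the 4 in both lists, as in the ER arm, whose mean was 9.53, 9.89, 10.3 and 9.89 in TAC WT 1 to 4. The 21 genes of secreted matrix averaged 11.04 to 11.48 in TAC KO and 9.88, 10.59, 11.51 and 11.10 in TAC WT, against 9.18 to 9.37 in basal KO and 8.79 to 9.06 in basal WT. The 13 fibroblast markers did not follow it, at 10.42 to 10.47 in TAC KO and 9.83, 10.08, 9.96 and 9.93 in TAC WT, against 9.81 to 9.99 in basal KO and 9.43 to 9.83 in basal WT. The 12 endothelial markers did not either, at 9.51, 9.54, 9.26 and 9.25 in TAC WT. In the neutrophil, smooth muscle and pericyte, and plasma and B cell lists TAC WT 1 was again the lowest and TAC WT 3 the highest. TAC WT 3 was the lowest in the lymphocyte list and in the cardiomyocyte list, which read 14.19, 14.19, 13.67 and 13.93 in TAC WT 1 to 4. After TAC 13 of the 18 macrophage markers rose in the knockout and 14 rose and 1 fell in the wild type. Of 13 fibroblast markers, 6 rose and 1 fell in the knockout, against 5 and 4 in the wild type. Beside both counts, 22.7% of all genes rose and 21.8% fell in the knockout, and 26.9% and 23.8% in the wild type. The part of these cells in the results for the ER genes was not tested. In whole ventricle a change in the number of cells of a type and a change in RNA per cell cannot be told apart.

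The knockout counts moved with single arrays of several groups. Without basal KO 2, 3 members were higher and 6 lower, beside 17.6% and 16.0% of all genes, and without basal KO 3, 5 were higher and 3 lower, beside 17.7% and 16.2%. Without TAC KO 4, 4 were higher and 6 lower, beside 17.8% and 17.0%. Without TAC WT 1, which enters only through the shared spread, 9 were higher and 6 lower, beside 24.0% and 22.9%. In the wild-type comparison, quantile normalization gave 8 members higher and 5 lower (20.9% and 30.1% of all genes), and centring each array on its median gave 11 higher and 3 lower (30.9% and 18.3%). These scalings moved the median of all genes to log2 -0.10 and 0.10.

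Further genes of the secretory pathway were taken from lists beside the members. These lists were compiled for the pathway with earlier results of these data known. At most 4 genes of smallest p are named per genotype, so a gene given for 1 genotype may have moved in the other too. None of the genes in these lists passed between the genotypes in either condition, where 1 of all genes did so after TAC. Of 43 genes for entry into and export from the ER, 31 were higher and 1 lower in the knockout (median log2 0.63), and 29 were higher and 1 lower in the wild type (median log2 0.68). All genes tested gave 22.7% higher and 21.8% lower in the knockout, and 26.9% and 23.8% in the wild type. Ssr4, a subunit of the translocon-associated complex, was 2.36-fold higher in the knockout (adjusted p = 0.000405) and Spcs1 of the signal peptidase 2.18-fold. Srp14 of the signal recognition particle was 1.72-fold higher in the knockout and 1.83-fold higher in the wild type. Sec24d, of the COPII coat that buds vesicles from the ER, was 1.71-fold higher in the knockout (adjusted p = 0.000523) and 1.64-fold higher in the wild type (adjusted p = 0.000532). Stt3a, which attaches glycans to new proteins, was 4.26-fold higher in the wild type and Sec23a, another coat subunit, 1.92-fold. The probe sets of Ssr4, Stt3a and Srp14 carry a suffix of possible cross-hybridization.

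Of 35 further ER folding genes, 22 were higher and 2 lower in each genotype (median log2 0.50 in the knockout and 0.53 in the wild type). The calcium-binding Nucb2 was 3.57-fold higher in the knockout (adjusted p = 0.000248) and 2.93-fold higher in the wild type (adjusted p = 0.00038), while its paralogue Nucb1 fell by 0.59 and 0.56 on the log2 scale. The prolyl isomerases Fkbp7 and Fkbp9 were 1.95-fold and 1.64-fold higher in the knockout. Tmx3, a membrane-bound disulfide isomerase, was 1.94-fold higher and Rcn1, a calcium-binding ER protein, 3.31-fold higher in the wild type. Among 24 further degradation genes 7 rose and 3 fell in the knockout, and 8 rose and 4 fell in the wild type. Both lists stand beside 22.7% of all genes higher and 21.8% lower in the knockout, and 26.9% and 23.8% in the wild type. Derl1, a channel component, was 2.01-fold higher in the knockout and 2.29-fold higher in the wild type, Edem3 was 1.61-fold and 1.80-fold higher, and the mannosidase Man1b1 fell by 0.78 and 0.81 on the log2 scale. Selenos, a selenoprotein of the ER membrane, passed in the knockout (log2 0.96) and Herpud2, a paralogue of Herpud1, in the wild type (log2 0.76).

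Of 19 partners of the sensors, 6 rose and 3 fell in the knockout, and 8 rose and 2 fell in the wild type. For this list and those below, all genes gave 22.7% higher and 21.8% lower in the knockout. In the wild type they gave 26.9% and 23.8%. Mbtps2, the protease that makes the second cut in ATF6, was 1.79-fold higher in the knockout (adjusted p = 0.000668) and 2.11-fold higher in the wild type (adjusted p = 0.000123). Creb3, a membrane-bound factor related to ATF6, was 2.26-fold and 1.97-fold higher, and Creb3l2 was 1.81-fold higher in the knockout. Crebzf, a transcription factor that binds members of the CREB3 family, passed in the wild type (log2 0.51). Tmbim6, an ER membrane protein known to restrain IRE1, fell by 0.33 in the knockout and Eif2ak1, an eIF2α kinase that senses heme, by 0.50 in the wild type, both on the log2 scale. Of 34 further targets of ATF4, 13 rose and 9 fell in the knockout, and 10 rose and 7 fell in the wild type. Gpt2, an alanine aminotransferase, fell by 1.16 in the knockout and by 1.36 in the wild type on the log2 scale. In the knockout the transcription factors Atf5 and Cebpb fell by 0.91 and 0.87, and Shmt2, an enzyme that converts serine to glycine in mitochondria, by 0.60. The stress-induced Ddit4 fell by 2.07 in the wild type, while the tRNA synthetase Eprs was 1.92-fold and the proline enzyme Aldh18a1 3.81-fold higher there. The probe sets of Shmt2 and Aldh18a1 carry a suffix of possible cross-hybridization. In the secreted matrix list, which holds cargo of this pathway, 19 of 21 genes rose in the knockout and 16 in the wild type, and none fell. Tnc, the matrix protein tenascin C, was 37.1-fold higher in the knockout, Timp1, a metalloproteinase inhibitor, 20.2-fold, and the matricellular protein Postn rose 7.11-fold in the knockout and 7.5-fold in the wild type.

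**Figure D4:**
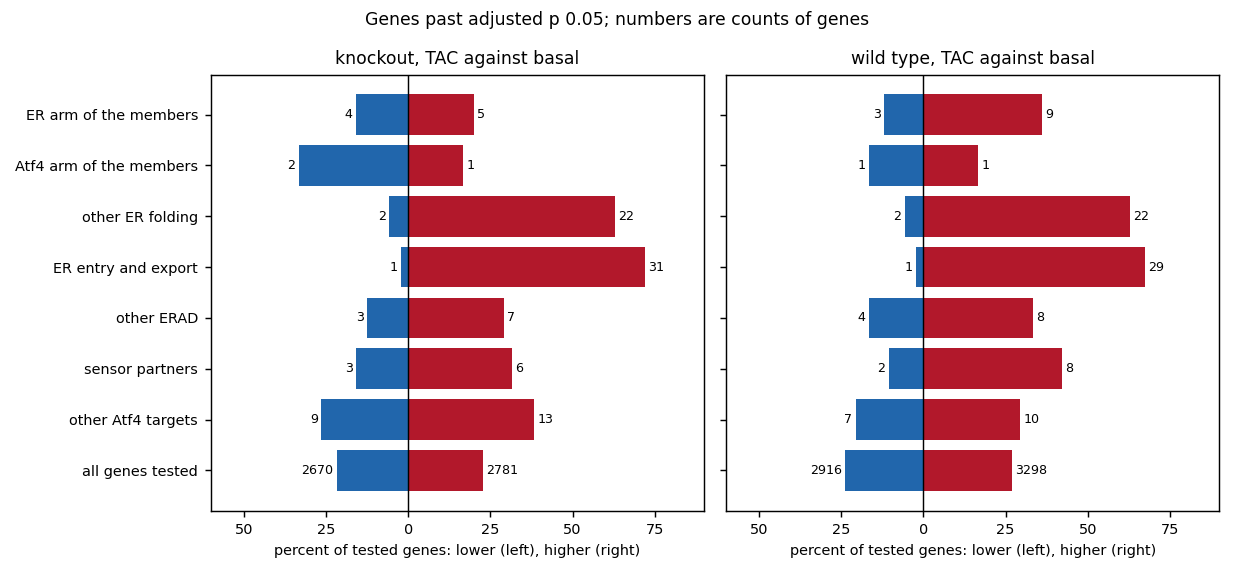
Share of tested genes called higher (red, right) or lower (blue, left) after TAC in the knockout (left panel) and the wild type (right panel), for both arms of the members, 5 further lists of the pathway and all genes tested; numbers are counts of genes. ER entry and export and other ER folding hold 22 to 31 genes higher with 1 or 2 lower, while the Atf4 arm holds 1 gene higher in each genotype.

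Knockout and wild type were then set against each other within each condition. In basal ventricles 0 of 31 members passed an adjusted p of 0.05 in limma, against 0% of all genes higher and 0% lower. By the unadjusted p, 3 members lay under 0.05. The share of all genes under that unadjusted cut is not given, here or in the comparisons below, so these members cannot be set against it. Chac1 read 7.51, 7.58 and 7.33 in basal KO against 8.27, 8.74 and 8.05 in basal WT, which do not overlap (log2 -0.88, SE 0.36, unadjusted p = 0.0293, adjusted p = 0.831). Dnajb9 read 10.42, 10.47 and 10.64 in basal KO against 10.73, 10.74 and 10.66 in basal WT (log2 -0.20, adjusted p = 0.858). The third was Sel1l, at 9.93, 9.98 and 10.05 in basal KO against 9.76, 9.64 and 9.81 in basal WT (log2 0.25, adjusted p = 0.857). In all, 5 members lay wholly above and 2 wholly below the wild type, beside 7.46% and 6.13% of all genes. Differences ranged from log2 -0.88 to 0.51, and for 26 of the 31 members the 95% interval lay within 1 log2 unit of 0.

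After TAC 0 of 31 members passed between the genotypes in limma, beside 1 gene higher (0.00816%) and 0% lower at the same adjusted p. By the unadjusted p, 1 member, Ern1, lay under 0.05, again without a share of all genes. Ern1 read 7.94, 7.72, 7.78 and 7.96 in TAC KO against 8.2, 8.2, 8.07 and 8.01 in TAC WT. The groups did not overlap, and the difference was log2 -0.27 (SE 0.10, 95% interval -0.49 to -0.05, adjusted p = 0.514). Dnajb9 also lay wholly lower, at 10.55 to 10.71 in TAC KO against 10.72 to 10.84 in TAC WT (log2 -0.13, adjusted p = 0.737). With these 2 below and 0 above, all genes gave 2.30% below and 1.69% above. The differences ran from log2 -0.34 to 0.34, and for 30 of the 31 the 95% interval lay within 1 log2 unit of 0, the exception being Atf3 (-1.79 to 1.24). In a fit that weights each array by how closely it follows its group, 5 members passed (Atf4, Ddit3, Eif2ak3, Ern1 and P4hb), beside 1256 genes higher and 1624 lower.

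**Figure D5:**
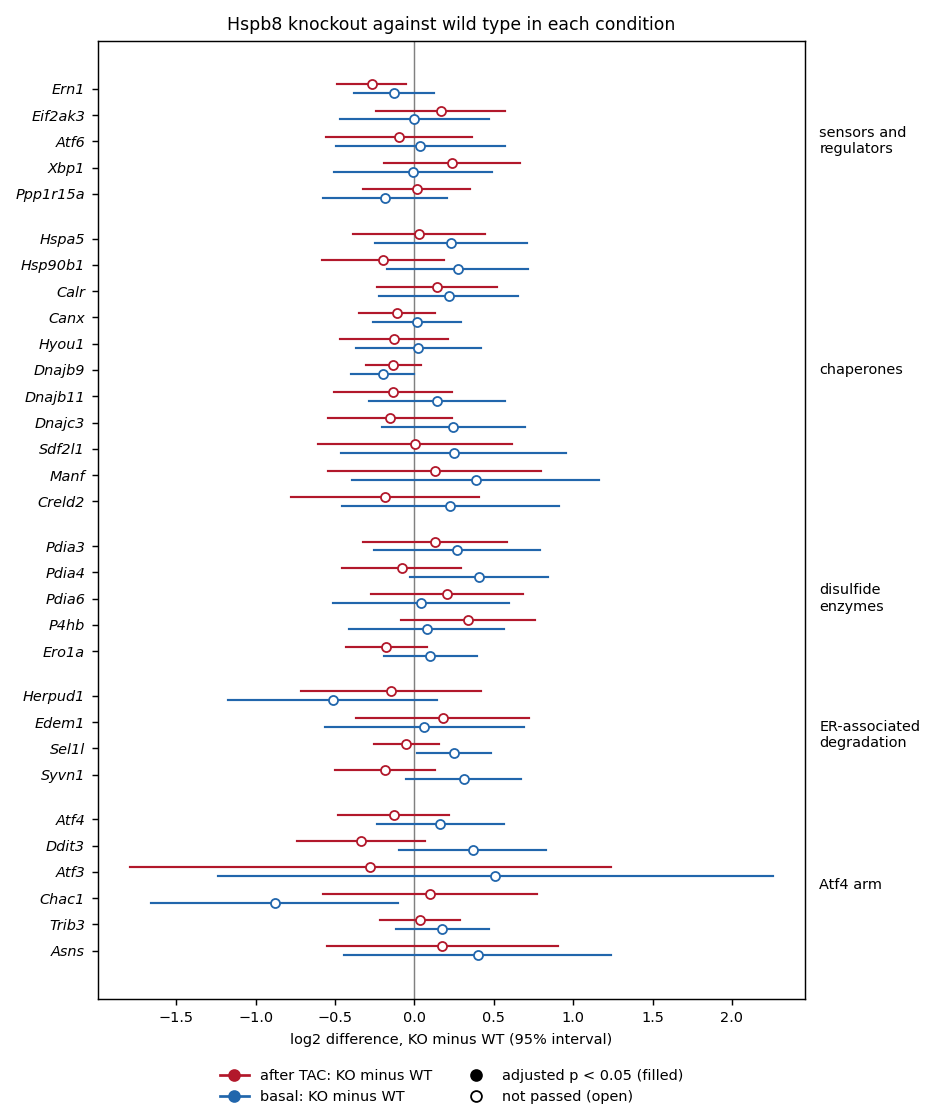
Difference between knockout and wild type for each member (log2, with its 95% interval), after TAC in red above basal in blue. All points are open, since none passed an adjusted p of 0.05. The basal intervals of Chac1 and Dnajb9 and the TAC interval of Ern1 lie to the left of 0, and the basal interval of Sel1l lies to the right.

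Whether the genotype difference after TAC differed from that in basal ventricles was tested directly, and 0 of 31 members passed in limma (0% of all genes higher and 0% lower). Syvn1 (log2 -0.50, unadjusted p = 0.0431, adjusted p = 0.634) and Ddit3 were the 2 members with an unadjusted p under 0.05, again without a share of all genes. The values ran from log2 -0.79 to 0.98, and the interval lay within 1 log2 unit of 0 for 21 of the 31 members. Thus Atf4, Ddit3 and Syvn1, lower after TAC in the knockout, and Canx, Chac1, Dnajc3, Ero1a and Hspa5, called after TAC in the wild type, were not shown to respond differently between the genotypes.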

How the data were processed

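Left ventricular RNA was measured on 14 Affymetrix Mouse430_2 arrays. The deposited values are log2 signals per probe set made by the authors with RMA, per the submitters' processing notes, but neither its version nor whether the 14 arrays were processed jointly is stated in the sources used here. The number of arrays per group limits the precision. Of 45101 probe sets, 34958 named 1 gene, 932 several and 9211 none in the platform annotation. Probe sets above 5.75 (log2) in 3 or more arrays passed the filter, and the one with the highest mean stood for its gene. Symbols were updated through gene numbers in the RefSeq table, which matched 34754 probe sets, 1 more by accession, and left 203 with the annotation's own symbol.

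The 4 groups were fitted together with limma 3.58.1 in R 4.3.3 (lmFit and eBayes), and p-values were adjusted over 12260 genes by Benjamini-Hochberg, with a threshold of 0.05 and 95% intervals. The comparisons were TAC with basal in each genotype, knockout with wild type in each condition, and the difference between those knockout effects. The members and gene lists were chosen with earlier results of these data known. All members were named, with each list's counts and at most 4 of its genes of smallest p. Same-numbered arrays deviated together in some pairs only: r over genes was 0.59, -0.06, -0.07 and 0.49 for replicates 1 to 4 between the TAC groups and -0.05 to 0.10 elsewhere. Since not every pair exceeded 0.1, the numbers were not used as pairs. Alternatives were the filter, the choice of probe set, quantile normalization, median centring, the arrays of a comparison alone, trended and robust variances, array weights, a replicate block, a minimum fold of 1.5 and leaving out arrays. The fit was tested on simulated data.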

Additional observations from a re-analysis of the deposited data

How the results depend on the processing

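After TAC, 14 members were called in the wild type and 12 in the knockout. Of all genes, 26.9% were higher and 23.8% lower in the wild type, and 22.7% and 21.8% in the knockout. The wild-type count was 8 when the arrays of that comparison alone were fitted, beside 21.2% and 18.2% of all genes. That setting gave 15 in the knockout, beside 25.9% and 24.0%, and the cause was not tested. The wild-type count was 10 to 21 over the fits without 1 array. It was highest without TAC WT 1, beside 29.4% and 26.4%. The knockout count was 8 to 15, and the lowest was without basal KO 3, beside 17.7% and 16.2%. Without TAC WT 1 and 3, which was chosen after seeing the data, the wild-type count was 17, beside 24.2% and 19.4%. With array weights 5 members were called between TAC KO and TAC WT, where 0 were called as reported, and that cause was not tested either. The same fit called 10.2% of all genes higher and 13.2% lower. The counts between the genotypes were otherwise 0, also in each fit without 1 array, and 0 for the difference of the knockout effects in each setting that gave a value. The arrays of a comparison alone give none for that difference. With the replicate block the counts were 14 in the wild type and 12 in the knockout after TAC and 0 between the genotypes, so it moved no count. Hyou1 in the knockout turned to log2 -0.95 when probe sets open to cross-hybridization were left out, since another probe set then stands for the gene. Among the 27 alternatives, the wild-type calls of Asns, Chac1, Ero1a, Herpud1, Hsp90b1 and Ppp1r15a and the knockout calls of Eif2ak3, Herpud1, P4hb and Syvn1 held in each. Hspa5 and Canx lost theirs in 7 in the wild type and Pdia3 in 8 in the knockout. Dim probe sets limit Trib3, whose values lie near the filter.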

Other observations

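Markers of further cell types are given here as values, over those that passed the filter on dim signals. Their counts stand beside 22.7% of all genes higher and 21.8% lower in the knockout, and 26.9% and 23.8% in the wild type. Of 12 endothelial markers, 5 fell after TAC in the knockout and 6 in the wild type and none rose, with Tie1 at log2 -1.52 and -1.02. Of 10 proliferation markers listed, 8 passed the filter, and 7 of these 8 rose in each genotype. The mean of the 8 was 5.10 to 5.27 in basal KO and 5.01 to 5.15 in basal WT, below the threshold of the filter. A marker that dim in every basal array could pass only through TAC arrays, so the filter itself tilted this count towards rises. Of 15 cardiomyocyte markers, 2 fell in the knockout, and 1 rose and 1 fell in the wild type, with the creatine kinase Ckm at log2 -1.65 in the knockout and -1.34 in the wild type. Of 10 smooth muscle and pericyte markers, 3 rose and 2 fell in each genotype. Of 12 plasma and B cell markers listed, from cells with a large ER, 4 passed the filter. These averaged 6.74 to 6.89 in TAC KO, 6.49 to 6.82 in TAC WT, 6.78 to 6.95 in basal KO and 6.64 to 6.92 in basal WT. Jchain, which defines plasma cells and is given although it did not pass the filter, read 4.01 to 4.29 in TAC KO and 3.92 to 4.68 in TAC WT. In basal KO it read 4.33 to 7.38 and in basal WT 3.97 to 4.21. Of 9 lymphocyte markers 3 passed the filter, and these fell in the wild type. Of 8 neutrophil markers listed, 4 passed the filter, and S100a8 and S100a9 of these rose in the knockout. Alas2, the erythroid marker that passed the filter, fell in both. Of 7 atrial markers, 3 fell in the knockout and 4 in the wild type, and their mean ran from 7.2 to 9.61 in TAC KO, 7.28 to 10.23 in TAC WT, 8.71 to 11.77 in basal KO and 11.05 to 11.44 in basal WT.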
